A study of Mus musculus with 8 samples.

Results

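The 89 genes described here carry a Gpr symbol, that is Gpr followed by a number and, in some, a letter or a further number. They were taken by symbol from the 23997 gene symbols in the files, leaving out Gpr17. No measured value entered that choice, but the family was put forward with earlier results of the same comparison known. Its counts are therefore a description, with no test over the family. RNA was taken from neural stem/precursor cells (NS/PCs), which divide in the embryonic brain and give rise to neurons and glia. The cultures were started from the telencephalon of E11.5 ICR mouse embryos (the stage label gives E11) and grew attached to a coated dish with 10 ng/mL bFGF (basic fibroblast growth factor). One group was transduced with Nfia, a transcription factor gene of the nuclear factor I (NFI) family, and the other was the control, with 3 poly(A) RNA libraries each, 3 days after transduction. The sources used here give neither the vector, nor its promoter, nor what the control cells received. They also do not say whether libraries of the same group are separate cultures, and p-values here measure only the spread between libraries, which may be technical.

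G protein-coupled receptors are membrane proteins that pass a signal from outside the cell to heterotrimeric G proteins on its inner side. A Gpr symbol was usually given to a receptor found by its sequence before a ligand was known, and many are still called orphan receptors. Adhesion receptors are a class with a long extracellular part that is cut from the membrane part, and they bind matrix or neighbouring cells. Some proteins with a Gpr symbol are not classical receptors and sit in the Golgi or the lysosome.

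Values are FPKM, fragments per kilobase of transcript scaled to the size of the library, as deposited, so levels can be compared between genes. The libraries summed to 477396 to 511700 FPKM with Nfia and 474010 to 492423 FPKM in control. Depth, estimated from the spacing of the lowest values and set to 1 in control 1, was 0.760 to 1.11 in the Nfia libraries and 0.906 to 1 in the control libraries, and the absolute depth is unknown. Nfia itself was at 69.0, 85.6 and 104 FPKM in the Nfia libraries and at 19.8, 23.9 and 22.2 FPKM in the control libraries. All 8 neural precursor markers were tested with limma (adjusted p under 0.05 over all genes). Of them 4 rose (Nes, Vim, Hes1 and Slc1a3). Another 2 fell, Pax6 with a log2 difference, Nfia minus control, of -0.65 and Hes5 with -0.57. The remaining 2 did not pass (Sox2 with 0.06 and Fabp7 with -0.22). The shares of all genes tested were 16.1% higher and 15.1% lower. The sum of the 8 was 5402 to 6482 FPKM with Nfia and 5446 to 5929 FPKM in control. Most of that sum was Fabp7, at a mean of 2957 FPKM with Nfia and 3426 FPKM in control, and Vim. Vim averaged 2443 FPKM with Nfia and 1888 FPKM in control. The summed level of 8 microglia markers was 1.17 to 1.64 FPKM with Nfia and 1.41 to 2.43 FPKM in control.

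Most Gpr genes were near or below the level that could be tested. Averaged across all 6 libraries, 8 of the 89 reached 10 FPKM or more, 6 lay between 5 and 10, 14 between 1 and 5, 29 between 0.1 and 1 and 28 above 0 but below 0.1 FPKM. Listed at 0 in all 6 libraries were 4 genes, among them Gpr110, Gpr132 and Gpr174. The 28 that averaged 1 FPKM or more were tested. Close to this limit were Gpr126 at 1.09 FPKM above it and Gpr158 at 0.986 FPKM below it. Of the 28, 1 had a group mean under 1 FPKM, in the Nfia libraries, and so was tested through its level in control.

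**Figure D1:**
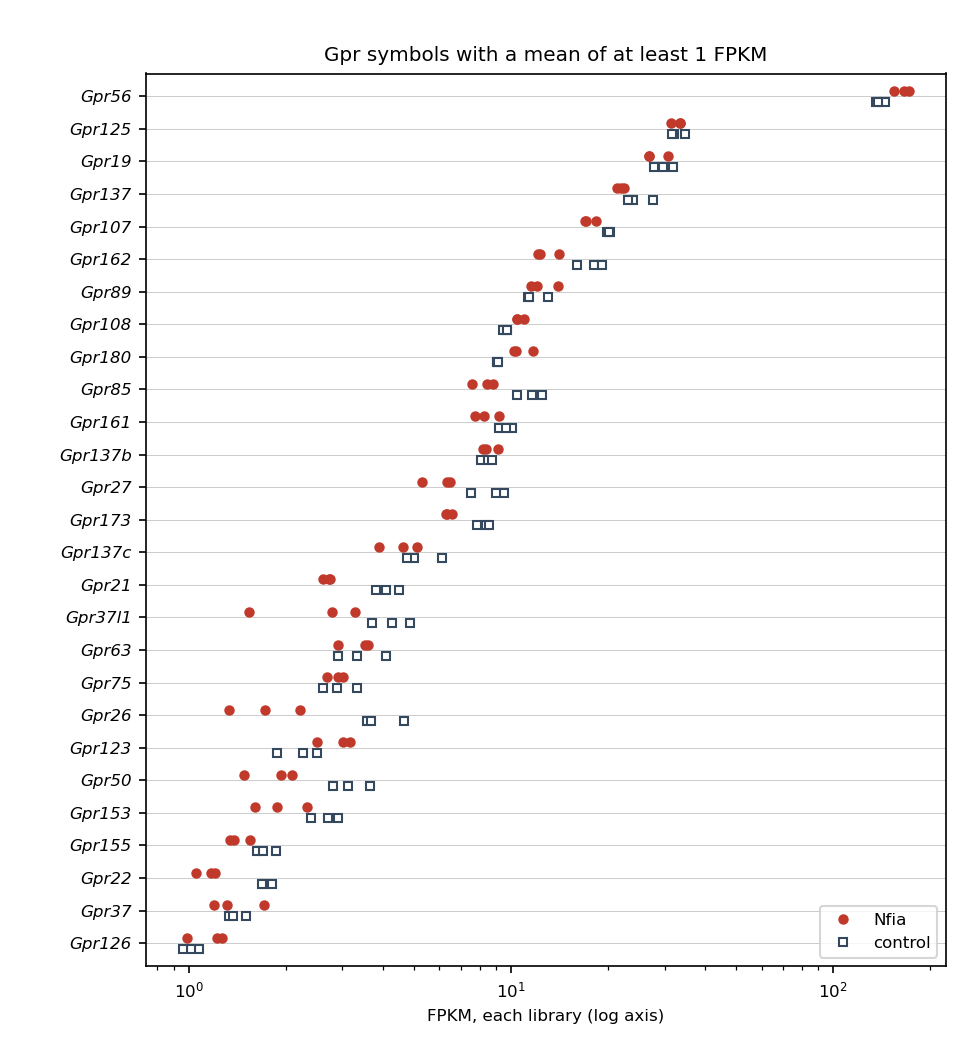
FPKM of each library on a log axis for 27 of the 28 Gpr genes tested, ordered by their mean, with Nfia libraries as filled circles above control libraries as open squares. Gpr56 stands alone at the top, at 135 FPKM or more in each library, and in Gpr26 and Gpr50 the Nfia libraries lie clearly to the left of the control libraries.

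With Nfia, more of the tested Gpr genes were lower than higher. Of the 28, 2 rose (7.14%), 10 fell (35.7%) and 16 did not pass the test, which is an adjusted p under 0.05 in limma over all 12537 genes tested. Of all genes tested, 31.3% were called, 16.1% higher and 15.1% lower. The log2 difference is that of the mean log2(FPKM + 1), Nfia minus control. Its median was -0.18 over these 28 and 0.01 over all genes tested, and 21 of the 28 had a difference below 0, against 48.5% of all genes. The Nfia libraries lay all below the control libraries in 15 and all above them in 3 of the 28, against 22.9% and 24.7% of all genes tested (47.7% in either direction). No difference that passed reached a log2 size of 1. Without control 3 only 5 of the 28 were lower and 0 higher. The count of higher genes was also 0 without control 1 or Nfia 1, and 1 without control 2 or Nfia 3.

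Gpr56 dominated the family, and it rose. It is the gene of an adhesion receptor, Adgrg1 in current naming, that is made by neural precursors and is needed for the normal layering of the cortex. Gpr56 had 166, 155 and 172 FPKM in the Nfia libraries, against 135, 145 and 138 FPKM in the control libraries. All Nfia libraries were above all control libraries, by a narrow margin between Nfia 2 and control 2. The mean was 164 ± 8.83 FPKM with Nfia and 139 ± 4.90 FPKM in control (SD, n = 3 each), 1.18-fold higher, with a log2 difference of 0.23, SE 0.06 and adjusted p = 0.0192. Leaving out control 1, control 3 or Nfia 1 ended the call (adjusted p = 0.0639, 0.0627 and 0.0526), as did quantile normalization (adjusted p = 0.0578). Gpr56 made up 40.7% to 42.5% of the summed FPKM of the 89 genes with Nfia and 34.9% to 35.6% in control. Without Gpr56 that sum was 228, 225 and 233 FPKM in the Nfia libraries, against 249, 262 and 258 FPKM in the control libraries, so the rest of the family, summed, was lower in each Nfia library.

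Gpr56 spans 94974756 to 95014208 of chromosome 8 in GRCm38. The RefSeq promoter table of GRCm38.p6 holds a pair of start sites for it. They are shown because Gpr56 is the most abundant member and rose. Each window runs from 250 bases before to 50 bases after a start on the plus strand, at chr8:94976859-94977158 and chr8:94984149-94984448. The core TTGGC of the NFI motif, on either strand (as TTGGC or GCCAA), would stand in capitals, and neither window holds it.
Gpr56 upstream start: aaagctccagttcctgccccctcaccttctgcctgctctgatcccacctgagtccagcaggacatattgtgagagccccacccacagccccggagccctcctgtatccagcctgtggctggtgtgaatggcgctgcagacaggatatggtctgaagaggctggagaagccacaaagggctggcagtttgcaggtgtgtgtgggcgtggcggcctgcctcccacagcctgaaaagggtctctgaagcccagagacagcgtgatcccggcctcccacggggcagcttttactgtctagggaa
Gpr56 downstream start: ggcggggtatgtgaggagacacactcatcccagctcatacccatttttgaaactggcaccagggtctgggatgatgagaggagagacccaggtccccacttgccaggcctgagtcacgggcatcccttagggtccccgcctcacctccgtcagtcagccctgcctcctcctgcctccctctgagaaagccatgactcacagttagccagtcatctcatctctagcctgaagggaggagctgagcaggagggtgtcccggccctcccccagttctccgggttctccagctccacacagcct

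The other adhesion receptors with a Gpr symbol that were tested showed no difference that passed. Of 16 such genes with a Gpr symbol, 4 were tested, and Gpr56 was the only one called. Of all genes tested, 31.3% were called. Gpr125 (Adgra3), the next most abundant Gpr gene, had 33.4, 31.3 and 33.5 FPKM with Nfia and 32.1, 34.6 and 31.6 FPKM in control, with fully mixed groups (log2 difference -0.00, SE 0.05, adjusted p = 0.992). Gpr123 (Adgra1), a gene of the brain, averaged 2.90 ± 0.350 FPKM with Nfia and 2.22 ± 0.316 FPKM in control (log2 difference 0.28, SE 0.11, adjusted p = 0.108). Gpr126 (Adgrg6), which in mice and fish is needed for myelin formation by Schwann cells, averaged 1.16 ± 0.150 FPKM with Nfia and 1.02 ± 0.0578 FPKM in control (adjusted p = 0.536). Of the 12 below the limit, Gpr98 (Adgrv1) was the highest, at a mean of 0.832 FPKM, and Gpr124 (Adgra2), which acts with Reck in the response of brain vessels to Wnt7 ligands, was at 0.672 FPKM. Summed over the 16 genes, adhesion receptors held 192 to 212 FPKM with Nfia and 172 to 185 FPKM in control. Most of that sum was Gpr56 alone, at 155 to 172 FPKM with Nfia and 135 to 145 FPKM in control.

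All 3 members of the SREB family fell, beside 15.1% lower of all genes tested. Gpr27, Gpr85 and Gpr173 encode the super-conserved receptors expressed in brain (SREB), orphan receptors with nearly the same sequence in distant vertebrates, which are found mainly in neurons. Gpr85 had 7.56, 8.82 and 8.44 FPKM with Nfia and 11.6, 10.5 and 12.5 FPKM in control. Gpr27 had 5.31, 6.45 and 6.33 FPKM with Nfia and 7.53, 9.53 and 8.99 FPKM in control. Gpr173 had 6.56, 6.35 and 6.28 FPKM with Nfia and 7.82, 8.38 and 8.55 FPKM in control. In each of these genes every Nfia library was below every control library, and the Nfia libraries of Gpr173 were close together.

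The ratio of means, Nfia over control, was 0.718 for Gpr85 (log2 difference -0.43, SE 0.08, adjusted p = 0.00839), 0.694 for Gpr27 (log2 difference -0.46, SE 0.10, adjusted p = 0.0157) and 0.776 for Gpr173 (log2 difference -0.32, SE 0.05, adjusted p = 0.00596). Their summed level was 19.4, 21.6 and 21.0 FPKM in the Nfia libraries, against 27.0, 28.4 and 30.0 FPKM in the control libraries. The calls of Gpr85 and Gpr173 held under each alternative run, while leaving out control 3 ended that of Gpr27 (adjusted p = 0.0551). On chromosome 6, Gpr27 (99692367 to 99695066) overlaps an end of Eif4e3, which was also lower with Nfia, at 1.73 ± 0.327 FPKM against 2.90 ± 0.420 FPKM in control (adjusted p = 0.0245, and 0.0759, 0.0796 and 0.0698 without control 1, control 3 or Nfia 2). Whether reads of the overlap were split between these genes is not given in the sources used here.

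The promoter windows of Gpr85 (chr6:13839893-13840192, minus strand) and Gpr173 (chrX:152368669-152368968, minus strand) are shown because these SREB genes moved together. Capitals mark TTGGC on either strand. The window of Gpr85 holds it at 2 places, both within ATTGGC, the reverse complement of GCCAAT, which also contains the CCAAT box core. The window of Gpr173 does not hold it.
Gpr85: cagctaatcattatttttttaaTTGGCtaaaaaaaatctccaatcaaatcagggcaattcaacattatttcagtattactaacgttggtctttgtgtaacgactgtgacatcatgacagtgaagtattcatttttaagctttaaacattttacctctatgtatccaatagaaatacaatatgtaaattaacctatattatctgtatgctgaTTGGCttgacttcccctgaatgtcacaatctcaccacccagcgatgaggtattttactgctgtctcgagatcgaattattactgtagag
Gpr173: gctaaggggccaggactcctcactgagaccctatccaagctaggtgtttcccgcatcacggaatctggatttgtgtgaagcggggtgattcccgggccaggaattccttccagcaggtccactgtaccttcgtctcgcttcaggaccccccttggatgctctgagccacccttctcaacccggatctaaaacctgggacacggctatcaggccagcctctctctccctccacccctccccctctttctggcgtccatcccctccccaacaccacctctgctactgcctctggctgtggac

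A window was matched for 22 of the 28 genes tested, 33 windows in all, and 16 of them (48.5%) held TTGGC on either strand, against 46.7% of 32851 windows of the same length. Of the 7 called genes with a window, 4 held it. The full motif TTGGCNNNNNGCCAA, which reads the same on both strands, was in 0 of the 33 windows and in 0.0365% of all windows. A match or its absence in such a window says nothing about binding, and the Flag ChIP sample is not analysed here.

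Among the remaining receptors, Gpr26 had the log2 difference furthest below 0 of the 28 genes tested. Gpr26 encodes an orphan receptor of the brain that raises cyclic AMP without a known ligand. Gpr26 had 1.34, 1.72 and 2.21 FPKM with Nfia and 3.57, 3.68 and 4.65 FPKM in control. The groups were far apart, and Nfia 3 was the highest of the Nfia libraries. The ratio was 0.443 (log2 difference -0.86, SE 0.14, adjusted p = 0.00591), and the call held under each alternative run. It spans 131966162 to 131985633 of chromosome 7 in GRCm38.

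Gpr50 fell as well. It encodes a relative of the melatonin receptors that does not bind melatonin. It had 1.48, 1.93 and 2.10 FPKM with Nfia and 2.80, 3.12 and 3.65 FPKM in control (ratio 0.576, log2 difference -0.56, SE 0.12, adjusted p = 0.0147). The groups were separate, with every Nfia library below every control library. Gpr50 lost its call without control 3 (adjusted p = 0.0509).

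Gpr162, Gpr21 and Gpr22 were also among the receptors that fell. Gpr162, an orphan receptor gene of the brain and the most abundant of them, had 12.2, 12.3 and 14.1 FPKM with Nfia and 16, 18.2 and 19.2 FPKM in control (ratio 0.722, log2 difference -0.44, SE 0.08, adjusted p = 0.00931). Gpr21, an orphan receptor gene, had 2.62, 2.73 and 2.74 FPKM with Nfia and 4.48, 3.82 and 4.10 FPKM in control (ratio 0.652, log2 difference -0.47, SE 0.08, adjusted p = 0.00516). Gpr22, an orphan receptor gene of heart and brain, had 1.05, 1.18 and 1.21 FPKM with Nfia and 1.72, 1.69 and 1.81 FPKM in control (ratio 0.658, log2 difference -0.35, SE 0.10, adjusted p = 0.0316). The Nfia libraries were all below the control libraries in each. The calls of Gpr162 and Gpr21 held under each alternative run, while Gpr22 lost its call without any 1 of the 6 libraries (adjusted p between 0.0546 and 0.0951).

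Gpr21 and Gpr22 lie inside other genes. Gpr56, Gpr107, Gpr162 and Gpr173, also called, overlap other genes without lying inside them. On chromosome 2, Gpr21 (37516626 to 37519281) is within Rabgap1 (37443263 to 37573420), a far more abundant gene that was lower too, at 36.8 ± 0.586 FPKM with Nfia and 42.5 ± 1.04 FPKM in control (ratio 0.866, log2 difference -0.20, adjusted p = 0.00904). On chromosome 12, Gpr22 (31706867 to 31713883) is on the minus strand within Cog5, which is on the plus strand. Cog5 was at 6.80 ± 0.254 FPKM with Nfia and 7.85 ± 0.227 FPKM in control (ratio 0.866, log2 difference -0.18, adjusted p = 0.0387), a call lost without any 1 of the 6 libraries (adjusted p between 0.0523 and 0.127). The ratios of Gpr21 and Gpr22 were further below 1 than those of the genes around them. Reads from an intron of the surrounding gene cannot be told apart from those of the receptor on the same strand, or on either strand if strand was not used in counting, and their part was not tested.

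Markers of neurons moved in the same direction as these receptors. All 6 of the neuron markers listed were lower with Nfia (Tubb3, Dcx, Map2, Elavl3, Elavl4 and Stmn2), beside 15.1% lower of all genes tested. Their summed level was 770 to 800 FPKM with Nfia and 1323 to 1436 FPKM in control. The part of this in the lower receptor levels was not tested, and in bulk RNA fewer neurons and less RNA per neuron cannot be told apart.

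**Figure D2:**
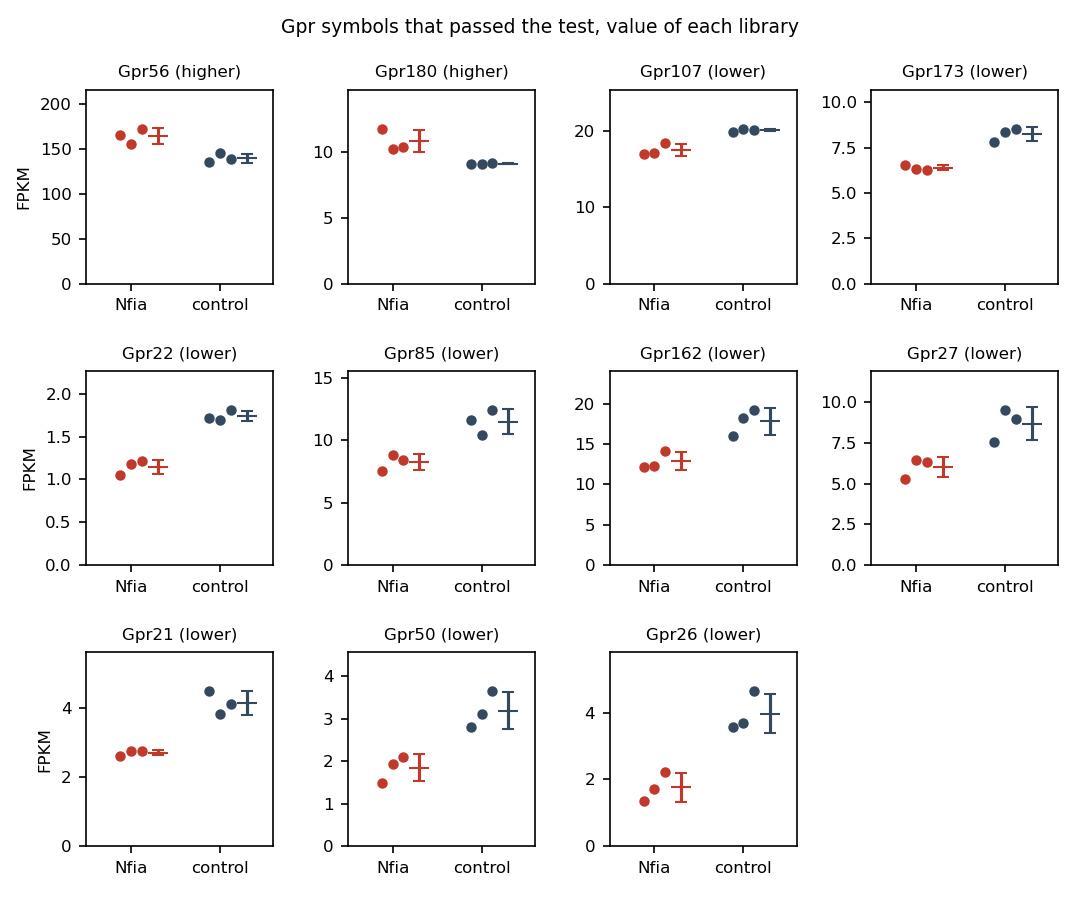
FPKM in each library of 11 of the 12 Gpr genes that passed the test, Nfia left of control in each panel, with points in the order of the replicate numbers and the mean and SD of 3 libraries to the right of them. In each of the 11 panels the groups do not overlap, and the lower members range from Gpr107 (ratio 0.868) to Gpr26 (ratio 0.443).

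Several of the receptors tested showed no difference that passed. Gpr19, an orphan receptor gene and the third most abundant Gpr gene, had 30.8, 26.9 and 26.9 FPKM with Nfia and 31.7, 29.7 and 27.7 FPKM in control (log2 difference -0.07, SE 0.07, adjusted p = 0.473). Gpr63 (log2 difference -0.03, SE 0.12) and Gpr75 (-0.02, SE 0.09) had mixed groups as well. Gpr153 averaged 1.94 ± 0.362 FPKM with Nfia and 2.66 ± 0.257 FPKM in control, with separate groups (log2 difference -0.32, SE 0.12, adjusted p = 0.08, and 0.0432 without Nfia 3). Gpr161, whose receptor sits in the primary cilium and restrains hedgehog signalling, had 7.72, 9.17 and 8.24 FPKM with Nfia and 9.20, 10.1 and 9.69 FPKM in control. Its Nfia libraries were all below the control libraries, Nfia 2 only just, and the log2 difference of -0.19 (SE 0.07) missed the threshold (adjusted p = 0.0884).

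The paralogs Gpr37 and Gpr37l1 differed in their values. Both encode receptors of glia that have been linked to the secreted protein prosaposin. Gpr37l1 had 3.28, 2.79 and 1.54 FPKM with Nfia and 3.72, 4.86 and 4.27 FPKM in control, so the groups were separate and Nfia 3 was far below the other libraries. Its log2 difference of -0.61 was the second largest in size among the 28, but with SE 0.20 it did not pass (adjusted p = 0.058, and 0.0337 without Nfia 1). Gpr37 had 1.20, 1.72 and 1.31 FPKM with Nfia and 1.33, 1.37 and 1.51 FPKM in control, fully mixed (log2 difference -0.00, SE 0.12). The difference between the paralogs was not tested. Of the astrocyte markers, 3 were tested and 2 were lower, beside 15.1% lower of all genes tested. Aldh1l1 (11.8 FPKM with Nfia and 17.1 FPKM in control) and Gfap (1.37 and 2.36 FPKM) fell. Slc1a2 (8.50 and 8.86 FPKM) did not pass. The sum of all 6 was 21.8 to 23.8 FPKM with Nfia and 28.9 to 31.3 FPKM in control, and Aldh1l1 fell the most in FPKM. The 7 oligodendrocyte lineage markers gave 2 higher and 2 lower (median log2 difference -0.31), beside 16.1% higher and 15.1% lower of all genes tested. They had a sum of 1054 to 1115 FPKM with Nfia and 363 to 409.8 FPKM in control. That sum was carried almost wholly by the 2 that rose, Olig1 (689.6 FPKM with Nfia and 227 FPKM in control) and Olig2 (373 FPKM with Nfia and 136 FPKM in control). Pdgfra (-0.64) and Mbp (-0.60) fell. Their part in the values of the paralogs was not tested. Psap, the prosaposin gene, was at 209 ± 10.6 FPKM with Nfia and 205 ± 12.6 FPKM in control (adjusted p = 0.756).

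**Figure D3:**
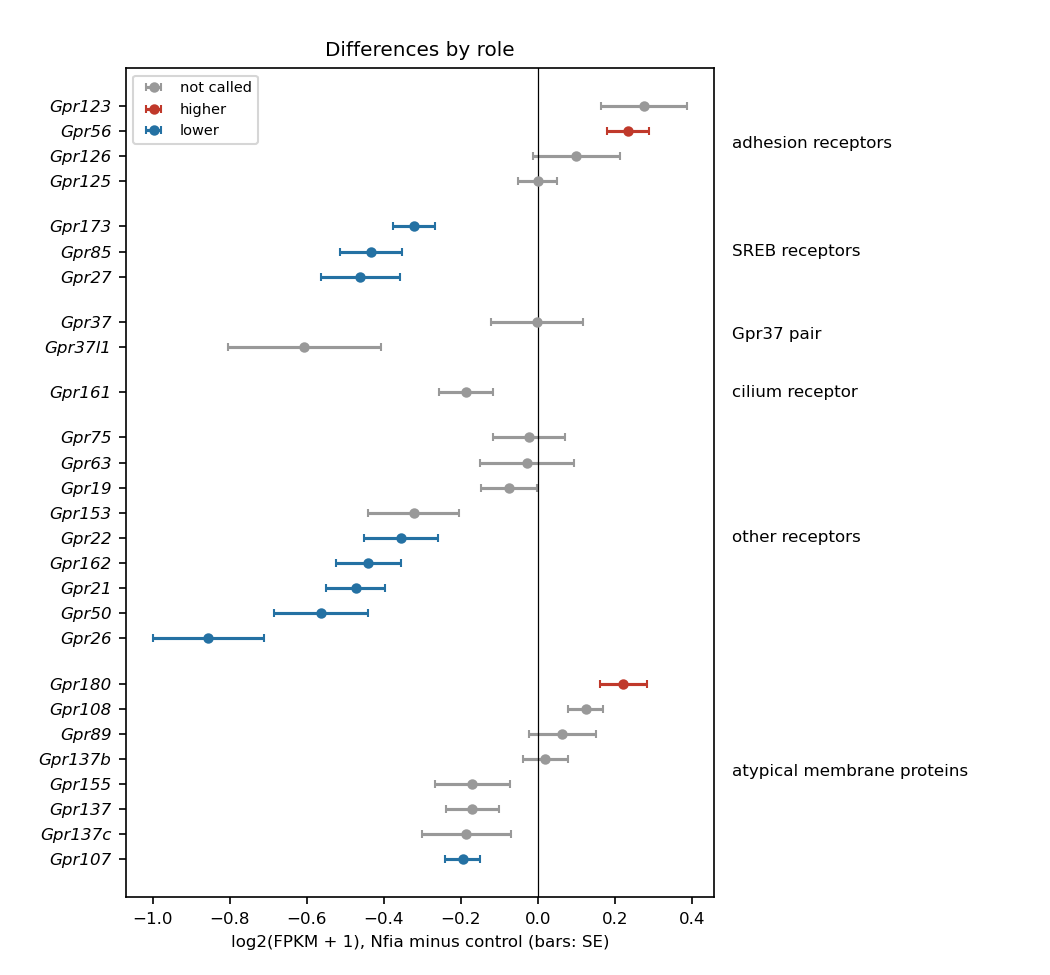
Difference in log2(FPKM + 1) between Nfia and control libraries (Nfia minus control) of 27 of the 28 Gpr genes tested, grouped by role, with bars for the SE from limma and colours for the call. All 3 SREB receptors are lower, the adhesion receptors lie at or above -0.00, and Gpr26 is furthest to the left at -0.86.

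Proteins with a Gpr symbol that are not classical receptors were among the more abundant members, and none of their log2 differences was larger in size than the 0.22 of Gpr180. Of 9 such genes 8 were tested, 1 rose and 1 fell, beside 16.1% higher and 15.1% lower of all genes tested. Gpr180, which has been linked to transforming growth factor beta signalling in fat cells, had 11.7, 10.2 and 10.4 FPKM with Nfia and 9.08, 9.05 and 9.14 FPKM in control. The groups were separate, with Nfia 1 highest, and the ratio was 1.19 (log2 difference 0.22, SE 0.06, adjusted p = 0.0328). That call ended without any control library, without Nfia 1 or Nfia 3 (adjusted p between 0.0509 and 0.0832), under upper-quartile scaling (adjusted p = 0.0507), under quantile normalization (adjusted p = 0.0567) and with no filter (adjusted p = 0.0582). Gpr107, a protein of the Golgi, had 16.9, 17.1 and 18.4 FPKM with Nfia and 19.9, 20.3 and 20.2 FPKM in control. The ratio was 0.868 (log2 difference -0.19, SE 0.05, adjusted p = 0.0187), and leaving out control 2, control 3, Nfia 1 or Nfia 2 in turn ended the call (adjusted p between 0.0529 and 0.0717). Gpr107 overlaps D330023K18Rik, which is on the other strand. D330023K18Rik was at 1.83 ± 0.193 FPKM with Nfia and 2.90 ± 0.770 FPKM in control (adjusted p = 0.0669).

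The other 6 of these genes did not pass. Gpr108, a Golgi relative of Gpr107, averaged 10.6 ± 0.296 FPKM with Nfia and 9.65 ± 0.178 FPKM in control, with separate groups (log2 difference 0.12, SE 0.05, adjusted p = 0.0799). Gpr137, a lysosomal membrane protein, averaged 21.9 ± 0.513 FPKM with Nfia and 24.9 ± 2.40 FPKM in control (adjusted p = 0.107). Gpr89, an ion channel of the Golgi, averaged 12.5 ± 1.30 FPKM with Nfia and 11.9 ± 0.998 FPKM in control (adjusted p = 0.612). Gpr137c had a log2 difference of -0.19, Gpr155, a lysosomal cholesterol sensor, -0.17 and Gpr137b 0.02. The files also hold Gpr137b-ps, a copy of Gpr137b, at much the same level in both groups (log2 difference -0.03), so the value of Gpr137b is uncertain where reads were split between the copies.

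Below the test limit, 61 Gpr genes remained. All 14 genes of immune or metabolite receptors were there, with a summed level of 0.918 to 1.67 FPKM with Nfia and 0.897 to 1.13 FPKM in control. So were the 4 receptors that sense protons or lysolipids, at a sum of 0.708 to 1.17 FPKM with Nfia and 0.632 to 0.814 FPKM in control, and the 3 class C orphan genes, among them Gpr158 and Gpr179. In the immune group Gpr34, a receptor gene of microglia, was highest, at 0.455 ± 0.185 FPKM with Nfia and 0.509 ± 0.132 FPKM in control. The proton sensor gene Gpr4 averaged 0.499 ± 0.134 FPKM with Nfia and 0.465 ± 0.0214 FPKM in control. Gpr158 averaged 0.862 ± 0.115 FPKM with Nfia and 1.11 ± 0.123 FPKM in control, with groups that overlapped. The Gpr3 family (Gpr3, Gpr6 and Gpr12), receptors that raise cyclic AMP without an added ligand, summed to 1.17 to 1.63 FPKM with Nfia and 1.01 to 1.37 FPKM in control. Several of these genes, such as Gpr4, Gpr116 and Gpr124, are known from vessels, and the groups of these 3 overlapped. The summed level of 7 endothelial markers was 2.09 to 2.87 FPKM with Nfia and 3.36 to 4.52 FPKM in control. Much of the difference in that sum was Cldn5, the only one tested, at 1.02 FPKM with Nfia and 2.09 FPKM in control. The groups of the other markers overlapped.

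Of these 61 genes, 57 had a value above 0. In 12 of the 57 the groups did not overlap, with Nfia below in 7 and above in 5. The same held for 15% of all genes that were below the limit with a value above 0, with 8.55% below and 6.5% above. Gpr149, an orphan receptor gene, was at 0.0853, 0.143 and 0.0776 FPKM with Nfia and at 0.389, 0.469 and 0.272 FPKM in control. Gpr64 (Adgrg2), an adhesion receptor gene, was at 0.0828, 0.0457 and 0.0657 FPKM with Nfia and at 0.225, 0.212 and 0.190 FPKM in control. In a fit of all genes with no limit on low values, these were the only ones of the 61 called (Gpr149 log2 difference -0.32, adjusted p = 0.0156, and Gpr64 log2 difference -0.18, adjusted p = 0.00756). The others with Nfia below were Gpr45, Gpr83, Gpr176, Gpr61 and Gpr20, and those with Nfia above were Gpr146, Gpr179, Gpr183, Gpr133 and Gpr35. At these levels a library may hold only a few fragments of a gene, and the absolute depth is unknown.

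The genes that act around these receptors were taken from lists of G protein signalling. Over all of them, 71 of 98 genes were tested, 10 rose and 24 fell. These counts and those of each list stand beside 16.1% higher and 15.1% lower of all genes tested. Without Nfia 2, 5 rose and 18 fell. Regulators of G protein signalling (RGS), which speed up the switching off of G protein alpha subunits, were lower where they changed. Of 12 RGS genes tested, 7 fell and 0 rose (1 rose without control 1), with a median log2 difference of -0.34. Rgs2, which acts mainly on the Gq class, fell to 12.5 ± 1.11 FPKM with Nfia, against 28.1 ± 2.50 FPKM in control (log2 difference -1.11, SE 0.08, adjusted p = 0.000413). Rgs4 (log2 difference -0.64), Rgs16 (-0.42) and Rgs12 (-0.30) fell too. Rgs5, also a pericyte marker, had -0.75, and its call ended without Nfia 2 (adjusted p = 0.0601). The 8 pericyte and mesenchyme markers, Rgs5 among them, summed to 6.95 to 13.4 FPKM with Nfia and 9 to 16.2 FPKM in control. That sum is therefore not separate from Rgs5, which averaged 2.02 FPKM with Nfia and 4.07 FPKM in control. Of the 6 tested, Rgs5 was the only one called, and 5 did not pass, beside 31.3% called of all genes tested. Among those 5, Col1a1 averaged 3.74 ± 2.30 FPKM with Nfia and 2.36 ± 1.28 FPKM in control.

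G protein alpha subunits went both ways. Of 12 tested, 3 rose and 3 fell (median -0.06), beside 16.1% higher and 15.1% lower of all genes tested. Gna14, a Gq class subunit, was at 9.71 ± 0.563 FPKM with Nfia and 1.96 ± 0.175 FPKM in control, the largest log2 difference of these lists at 1.85 (SE 0.07, adjusted p = 9.12e-05). Its relative Gnaq fell to 43.0 ± 2.64 FPKM with Nfia, against 52.0 ± 1.20 FPKM in control (log2 difference -0.27, adjusted p = 0.0101). Gna13 (0.33) and Gna12 (0.24) rose, and Gnao1 (-0.27) and Gnai2 (-0.18) fell, of which Gnao1, Gnai2 and Gna12 lost the call without Nfia 2 (adjusted p = 0.0605, 0.081 and 0.0767). Gnai2 also lost it without control 1 or 2, Gnao1 without control 3, and Gna12 without control 1, control 3 or Nfia 3 (adjusted p = 0.0552 to 0.101).

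Of 12 beta and gamma subunits tested, 3 rose and 6 fell (median -0.18), beside 16.1% higher and 15.1% lower of all genes tested. Gng2 fell to 94.5 ± 1.95 FPKM with Nfia, against 149.9 ± 4.64 FPKM in control (log2 difference -0.66, adjusted p = 0.00028), and Gng12 rose to 42.5 ± 3.22 FPKM with Nfia, against 24.9 ± 1.26 FPKM in control (log2 difference 0.75, adjusted p = 0.000626). The neuronal subunits Gng3 (-0.55) and Gng4 (-0.66) fell. The count of higher subunits was 1 without control 1, Nfia 1 or Nfia 2.

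Partners and ligands of Gpr proteins gave 1 higher and 5 lower of 12 tested (median -0.11). The shares of all genes tested were 16.1% higher and 15.1% lower. Gprin1, which promotes neurite outgrowth downstream of G proteins, fell to 23.2 ± 0.413 FPKM with Nfia, against 34.5 ± 1.61 FPKM in control (log2 difference -0.55, adjusted p = 0.000541). The receptor-sorting genes Gprasp2 (-0.61) and Gprasp1 (-0.29) fell, as did Gpsm1 (-0.35), which binds Gi alpha subunits, and the ligand gene Wnt7a (-0.49). Several of these partners are known mainly from neurons, whose markers were lower as given above, and the part of this in their values was not tested. Tulp3, which carries Gpr161 into the cilium, rose (0.29), a call that ended without Nfia 2 (adjusted p = 0.0545). Col3a1, the gene of the collagen that binds Gpr56, was at 3.86 ± 2.34 FPKM with Nfia and 3.69 ± 2.05 FPKM in control (adjusted p = 0.98).

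**Figure D4:**
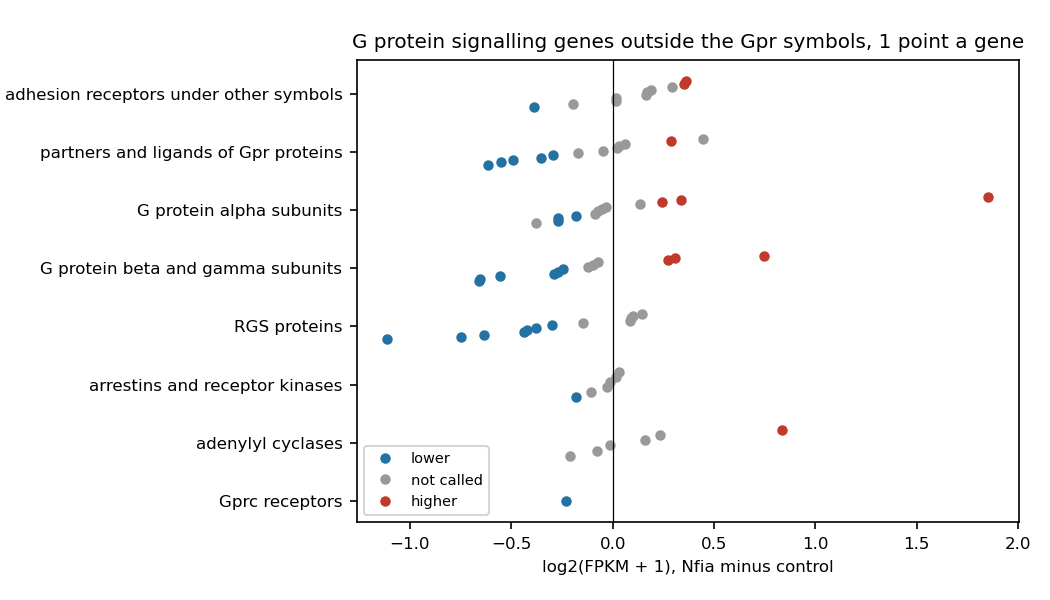
Difference in log2(FPKM + 1) between Nfia and control libraries (Nfia minus control) of genes of G protein signalling outside the Gpr symbols, with 1 point for each gene tested and colours for the call. The RGS genes called all lie to the left, and Gna14 stands furthest to the right at 1.85.

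Adhesion receptors that carry other symbols gave 2 higher and 1 lower of 10 tested (median 0.17). The shares of all genes tested were 16.1% higher and 15.1% lower. Bai2 was at 39.3 ± 2.35 FPKM with Nfia and 30.4 ± 2.74 FPKM in control (log2 difference 0.36, adjusted p = 0.0123). Bai1 rose by a similar size (0.35), and leaving out control 1, control 2 or Nfia 2 ended its call (adjusted p between 0.0519 and 0.0538). Celsr1 missed the threshold (log2 difference 0.29, adjusted p = 0.082). Celsr3, of the cadherin-like adhesion receptors that guide axons, fell to 9.42 ± 0.729 FPKM with Nfia, against 12.7 ± 1.09 FPKM in control (log2 difference -0.39, adjusted p = 0.0116).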

How the data were processed

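Only the 6 RNA-seq libraries were used. The deposited values are FPKM, per the submitters' processing notes (TopHat, Bowtie version 1, SAMtools, Cufflinks, Cuffdiff, MACS version 1.4, build mm10, with no role or order) and the values themselves, since the files have no header. The sources used here do not state the annotation, the filters or the use of strand. Per the labels' protocols, poly(A) RNA and a directional kit were used. Whole reads could not be recovered, since gene lengths are unknown, so no count test was run. Because FPKM is relative to the library, a rise of abundant genes lowers the rest.

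Genes averaging 1 FPKM or more were compared as log2(FPKM + 1), which understates changes of low genes, by limma's moderated two-sided test with a mean-variance trend (limma 3.58.1, R 4.3.3; residual degrees of freedom 4) and Benjamini-Hochberg adjustment over 12537 genes. An exact permutation test of 3 against 3 cannot go below 0.1. Fold values are ratios of mean FPKM. Relative depth came from value steps of genes under 0.3 FPKM. Positions and promoter windows are from RefSeq tables of GRCm38.p6, matched by symbol or synonym (89 of 89 members). The members and lists were chosen with earlier results of these data known.

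Named were each member called, the 8 most abundant, those nearest the limit, and role or list members by level or adjusted p. Also named were further list members called, by value, and genes that overlap named members, chosen after their values were seen. Some members are counted but not reported here by name. The limma step was checked on simulated data. Alternatives were a pseudocount of 0.1, no filter, a mean of at least 5 FPKM, quantile normalization, scaling by the upper quartile or by median ratios, no trend, a robust trend, library weights, the replicate block, and leaving out each library.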

Additional observations from a re-analysis of the deposited data

How the results depend on the processing

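The count of Gpr genes lower with Nfia, 10 with all libraries, was 10 to 12 under the other scalings, variance models, pseudocount, weights and with no filter, 5 with a mean of at least 5 FPKM, where only 14 of the 28 genes are tested, and 5 to 9 without 1 library. The count higher, 2, was 1 with no filter, 1 under upper-quartile scaling, 0 under quantile normalization and 0 to 2 without 1 library. The median log2 difference of members tested was -0.0148 with no filter, which adds genes near 0, -0.12 with a mean of at least 5 FPKM and -0.20 to -0.14 without 1 library. Over the signalling lists, 5 to 9 genes were higher and 18 to 22 lower without 1 library. Of the 12 called Gpr genes, 5 (Gpr21, Gpr26, Gpr85, Gpr162 and Gpr173) kept the call under each alternative that tested them. With the replicate number as a block, 2 Gpr genes were higher and 10 lower, Gpr22 lost its call (adjusted p = 0.0564) and Gpr161 passed (adjusted p = 0.0482). Libraries of the same number did not deviate together (r of deviations 0.03, -0.01 and 0.05 over genes), so the numbers do not show a pairing. Calls were gained by Gpr37l1 under a robust trend (adjusted p = 0.0397) and by Gpr37l1 and Gpr153 with library weights (adjusted p = 0.0384 and 0.0341).

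Sign changes were seen among genes that were not called. Under upper-quartile scaling Gpr137b was at -0.00897, under quantile normalization Gpr37 at 0.0260, and with library weights Gpr37 at 0.0782 and Gpr63 at 5.33e-05. Leaving out 1 library in turn gave ranges across 0 of -0.0259 to 0.0382 for Gpr125, -0.0219 to 0.0479 for Gpr137b, -0.0913 to 0.0604 for Gpr37, -0.118 to 0.0764 for Gpr63, -0.0831 to 0.0468 for Gpr75, -0.0132 to 0.127 for Gpr89, -0.0705 to 0.0161 for Gpr137b-ps, -0.0571 to 0.0145 for Adrbk1 and -0.0143 to 0.0913 for Arrb2. For the calls and counts that changed, the cause was not tested unless stated. Depth limits the 61 genes below 1 FPKM most, and no counting interval can be given.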

Other observations

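Of 6 adenylyl cyclase genes tested, which make cyclic AMP, 1 was higher and 0 lower, beside 16.1% higher and 15.1% lower of all genes tested, so that with so few genes no reading of the count is made. Adcy3, the cyclase of primary cilia, was at 3.87 ± 0.163 FPKM with Nfia and 1.73 ± 0.0190 FPKM in control (SD, n = 3 each; log2 difference 0.84, limma adjusted p = 0.000604). Adcy6 missed the threshold (log2 difference 0.23, adjusted p = 0.0505) and passed without control 3 (adjusted p = 0.0212), with a robust trend, a pseudocount of 0.1, a mean of at least 5 FPKM and the replicate block (adjusted p between 0.0328 and 0.0449). Adcy5 (-0.21) and Adcy1 (0.16) did not pass. Of 6 arrestin and receptor kinase genes tested, which switch receptors off, 1 was lower and 0 higher, to be set beside the same shares. That gene was Arrb1, at 7.03 ± 0.229 FPKM with Nfia and 8.12 ± 0.231 FPKM in control (log2 difference -0.18, adjusted p = 0.0351), a call lost without any 1 of the 6 libraries (adjusted p between 0.0517 and 0.114). Adrbk2 (-0.11), Adrbk1 (-0.03) and Arrb2 (0.03) did not pass. Gprc5b, a receptor gene of neural precursors with a related symbol, was at 18.1 ± 0.102 FPKM with Nfia and 21.4 ± 0.252 FPKM in control (log2 difference -0.23, adjusted p = 0.00492).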
